A study of Mus musculus with 6 samples.

Results

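The secreted Wnt antagonists are extracellular proteins that hold back Wnt signalling, and 10 of their genes, chosen by symbol for this known role, were followed in cells of the mouse jawbone periosteum. They are Sfrp1, Sfrp2, Sfrp4, Frzb, Dkk1, Dkk2, Dkk3, Notum, Wif1 and Sost, and all 10 were found among the 18002 genes listed in the deposited tables. The periosteum is the sheath of bone, a tissue rich in skeletal progenitor cells. Its primary cells were cultured for 48 h as spheroids, labelled as aggregates and set up in 3 libraries, or as monolayers on a flat surface, also in 3 libraries. No allele, drug or gene transfer is named for either format, and strain, age and sex of the mice are not stated in the labels. Nor do the labels say if the 3 libraries of each format are separate cultures or separate mice. The p-values therefore reflect the spread among 6 libraries, and that spread may be technical. Library totals ranged from 21701046 to 21889110 estimated reads.

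Wnt proteins carry a lipid group and bind Frizzled receptors together with the co-receptors Lrp5 and Lrp6, which keeps beta-catenin from being degraded and lets it act with TCF and LEF factors on target genes. In bone this route favours osteoblast formation, and its antagonists restrain it at different points outside the cell. Secreted frizzled-related proteins (sFRPs, here Sfrp1, Sfrp2, Sfrp4 and Frzb) and Wif1 bind Wnt itself, Notum removes the lipid from it, and Dkk1, Dkk2 and the Sost protein sclerostin occupy Lrp5 and Lrp6.

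The most abundant antagonist transcripts of spheroids differed from those of monolayers. Sfrp4, Notum and Wif1 were 78.7-fold, 8.42-fold and 5.58-fold higher in spheroids, while Sfrp1, Sfrp2 and Dkk2 were 5.17-fold, 4.58-fold and 5.25-fold lower. Dkk3 was 1.13-fold lower, Frzb did not pass the test, and Dkk1 and Sost had almost no reads in either format. Of 8 members with enough reads to test, 3 rose and 4 fell in edgeR's quasi-likelihood test at a Benjamini-Hochberg adjusted p below 0.05. Over all 13708 tested genes 74.2% were called, 37.1% higher and 37.1% lower, so the count of members called is near the background. CPM, the read count scaled to library size, did not overlap between the formats for 7 of the 8, beside 75.8% of all tested genes. Changes of at least 2-fold were called for 6 of the 8 members, against 19.4% of all tested genes. The members were chosen with earlier results of these data known, so this contrast is a description only. The lowest count of a tested member in any library was 36 reads, so none passed the filter on low counts through 1 format alone. The median log2 fold change (spheroid over monolayer) of the 8 tested members was 0.06, beside 0.00 over all tested genes, because the risers and fallers offset each other.

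Sequence before an annotated start is shown for 3 called members, to set the riser Wif1 beside the fallers Sfrp2 and Dkk2. It is also shown for Dkk1, a member with almost no reads. RefSeq promoter windows on GRCm38.p6 were matched for 6 of the 10 members (Sfrp2, Frzb, Dkk1, Dkk2, Wif1 and Sost). The 250 bases before the annotated start are printed 5′ to 3′ on the gene's strand, at chr10:121033754-121034003 (plus strand), chr3:83766071-83766320 (plus), chr3:132085042-132085291 (plus) and chr19:30549497-30549746 (minus). The annotated starts used for the Sfrp2 and Dkk2 windows lie inside the gene spans given with the values of each gene. The Dkk2 window therefore reaches partly into its span. The Sfrp2 window lies wholly inside its span and so is not upstream of that span. Capitals mark matches to the motifs named after the sequences.
Wif1: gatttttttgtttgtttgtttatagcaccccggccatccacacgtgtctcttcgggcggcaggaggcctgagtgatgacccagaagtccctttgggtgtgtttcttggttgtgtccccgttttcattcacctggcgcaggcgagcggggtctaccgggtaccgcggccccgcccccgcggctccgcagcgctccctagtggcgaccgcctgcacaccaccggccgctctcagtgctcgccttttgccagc
Sfrp2: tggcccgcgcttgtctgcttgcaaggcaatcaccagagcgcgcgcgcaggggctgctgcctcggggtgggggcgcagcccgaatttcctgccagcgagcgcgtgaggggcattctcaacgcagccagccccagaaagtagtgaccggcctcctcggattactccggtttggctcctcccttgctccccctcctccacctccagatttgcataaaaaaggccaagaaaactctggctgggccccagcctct
Dkk2: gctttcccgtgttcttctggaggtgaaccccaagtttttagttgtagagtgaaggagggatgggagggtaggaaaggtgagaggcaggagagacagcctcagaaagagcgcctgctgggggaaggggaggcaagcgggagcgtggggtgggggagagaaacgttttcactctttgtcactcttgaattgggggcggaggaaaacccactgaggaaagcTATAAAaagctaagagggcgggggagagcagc
Dkk1: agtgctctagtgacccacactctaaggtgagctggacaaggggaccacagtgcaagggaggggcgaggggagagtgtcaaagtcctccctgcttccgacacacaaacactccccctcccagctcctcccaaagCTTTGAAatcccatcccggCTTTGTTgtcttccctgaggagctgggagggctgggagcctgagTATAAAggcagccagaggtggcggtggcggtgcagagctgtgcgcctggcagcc
The motifs searched were TCF/LEF (CTTTG followed by either AA or AT or else TA or TT), AP-1 (TGANTCA), NF-kB and the CArG box of serum response factor, all on both strands, and the TATA box (TATAAA) on the gene's strand. No matches overlapped each other. In these 250 bases the TCF/LEF letters were found in Dkk1, at 117 to 111 and at 98 to 92 bases before the start, and in none of the other 5 members with a window. They occur in 14.8% of all 32851 promoter windows of this length. TATAAA lay 32 to 27 bases before the start of Dkk2 and 54 to 49 bases before that of Dkk1, and occurs in 7.59% of windows. AP-1, NF-kB and CArG letters, which occur in 6.75%, 5.0% and 1.47% of windows, were in none of the 6. The windows of Wif1 and Sfrp2 held 21 and 16 CpG dinucleotides and those of Dkk2 and Dkk1 held 7 and 6, where the median window holds 6. The riser Wif1 and the faller Sfrp2 thus both had CpG-rich windows.

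Among the sFRPs, Sfrp4 replaced Sfrp1 and Sfrp2 as the most abundant transcript. Sfrp4 (gene ID 20379, GRCm38.p6 chromosome 13, 19623175 to 19632825), whose loss in people thins cortical bone, had 159.41, 170.35 and 172.53 FPKM in spheroids, against 2.49, 1.87 and 1.87 FPKM in monolayers. FPKM is the authors' level per gene length and library size, which allows genes to be compared. Every spheroid library was far above every monolayer library. Its log2 fold change was 6.30 ± 0.06 (SE, adjusted p = 1.64e-32 in edgeR), the 27th largest rise of 13708 tested genes. By mean FPKM it stood 386th of 18002 listed genes in spheroids and 10252th in monolayers.

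Sfrp1 (gene ID 20377, chromosome 8, 23411383 to 23449632), a Wnt-binding protein whose loss in mice raises bone mass, went the other way. It had 36.31, 35.95 and 36.62 FPKM in spheroids, against 184.15, 185.7 and 180.55 FPKM in monolayers. The 2 formats did not overlap, and the libraries of each lay within a few percent of one another. The log2 fold change was -2.37 ± 0.03 (SE, adjusted p = 1.43e-34 in edgeR). Sfrp1 stood 2098th by mean FPKM in spheroids and 363rd in monolayers.

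Sfrp2 (gene ID 20319, chromosome 3, 83765750 to 83774314), another Wnt-binding sFRP, had 35.13, 35.85 and 36.79 FPKM in spheroids, against 149.39, 161.16 and 171.35 FPKM in monolayers. Again no spheroid library reached a monolayer library, though the monolayers spread more widely, with a coefficient of variation of 6.84% against 1.44% for Sfrp1 in the same libraries. The log2 fold change was -2.19 ± 0.04 (SE, adjusted p = 1.95e-21 in edgeR). An antisense gene, Gm26771, overlaps 464 bases of the Sfrp2 gene in GENCODE M21. Whether counting used strand is not stated, so reads of the 2 genes cannot be told apart.

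Frzb (gene ID 20378, chromosome 2, 80411970 to 80447396), an sFRP first known from cartilage, was low in both formats. It had 1.72, 1.41 and 1.31 FPKM in spheroids, against 1.13, 1.07 and 1.32 FPKM in monolayers. The formats overlapped, since the highest monolayer library exceeded the lowest spheroid library. The log2 fold change was 0.30 ± 0.14 (SE, 95% interval 0.01 to 0.59 before adjustment), and the adjusted p of 0.0565 in edgeR missed the threshold. It passed under 4 of 12 other settings and without spheroid replicate 3 (adjusted p = 0.0306) or monolayer replicate 3 (adjusted p = 0.0292), so 1 library can decide its call.

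The summed FPKM of the 4 sFRP genes was 241.1 ± 7.64 in spheroids and 347.4 ± 9.21 in monolayers (SD, n = 3 each). Within that sum Sfrp4 made up 69.4% ± 0.765 in spheroids and 0.60% ± 0.12 in monolayers. Sfrp1 made up 15.1% ± 0.478 in spheroids and 52.9% ± 1.90 in monolayers, and Sfrp2 14.9% ± 0.194 in spheroids and 46.2% ± 1.98 in monolayers. The gain in Sfrp4, 165.4 FPKM in the means, was smaller than the joint loss of Sfrp1 and Sfrp2, whose means differed by -147.2 and -124.7 FPKM. The ratio of Sfrp2 to Sfrp1 FPKM was 0.990 ± 0.0197 in spheroids and 0.876 ± 0.0693 in monolayers, and the libraries of the 2 formats did not overlap in it. The sum is a description of mRNA and takes no account of how strongly each protein acts.

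**Figure D1:**
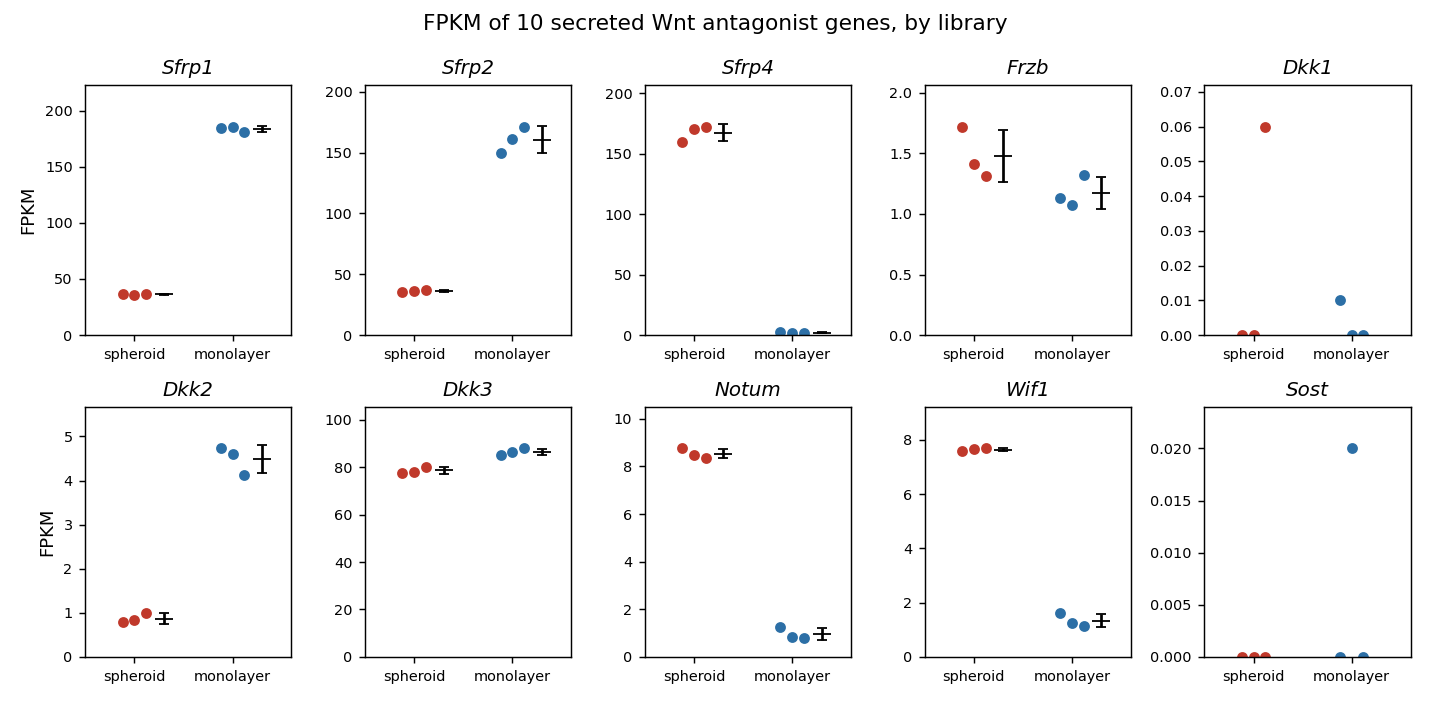
FPKM of each of the 10 antagonist genes (y axis, its own scale in each panel) in the 3 spheroid and 3 monolayer libraries. Points are libraries, and bars give the mean and SD for the 8 tested genes. Sfrp4, Notum and Wif1 are high in spheroids, Sfrp1, Sfrp2 and Dkk2 are high in monolayers, Dkk3 differs little, and the Frzb groups overlap.

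The Wnt-binding protein Wif1 and the lipid-removing enzyme Notum also rose, and both were low in monolayers. Notum (gene ID 77583, chromosome 11, 120653788 to 120661193) had 8.76, 8.5 and 8.37 FPKM in spheroids, against 1.26, 0.84 and 0.81 FPKM in monolayers. Its libraries did not overlap between formats, and the log2 fold change was 3.07 ± 0.11 (SE, adjusted p = 1.31e-21 in edgeR). The antisense genes Notumos and Myadml2os overlap Notum, so the caution given for Sfrp2 holds here as well.

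Wif1 (gene ID 24117, chromosome 10, 121034004 to 121100642) had 7.59, 7.65 and 7.69 FPKM in spheroids, against 1.61, 1.25 and 1.15 FPKM in monolayers. The lowest spheroid library was well above the highest monolayer library. The log2 fold change was 2.48 ± 0.10 (SE, adjusted p = 2.26e-20 in edgeR). The spheroid libraries differed by less than counting error alone would give, with a coefficient of variation of 1.10% in CPM beside 5.24% for counting. In monolayers, where Wif1 rested on 192 reads and Notum on 130, the coefficients of variation in CPM were 18.4% and 25.9%, beside counting values of 12.5% and 15.2%.

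Monolayer replicate 1 held the highest monolayer level of Sfrp4, Notum and Wif1 and the lowest of Sfrp2. It was thus the monolayer library nearest to the spheroids for these 4 genes, so leaving it out had to widen their differences. Without it the log2 fold changes were 6.44 for Sfrp4, 3.29 for Notum, 2.63 for Wif1 and -2.25 for Sfrp2. Leaving out monolayer replicate 3 instead gave 6.23, 2.95, 2.38 and -2.15 in the same order, all smaller in size than with every library. The SEs given for log2 fold changes come from the test and are smaller than counting error alone for Sfrp4, Notum, Wif1 and Dkk2, for which counting gives 0.095, 0.13, 0.11 and 0.11.

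Of the Dickkopf genes, Dkk3 was the main transcript in both formats and hardly moved. Dkk3 (gene ID 50781, chromosome 7, 112116019 to 112159482), a divergent member of the family that is not an established Lrp6 inhibitor, had 77.54, 78.09 and 80.26 FPKM in spheroids, against 85.21, 86.4 and 87.92 FPKM in monolayers. The formats did not overlap although the gap was small. The log2 fold change was -0.17 ± 0.03 (SE, adjusted p = 3.33e-06 in edgeR), smaller in size than the median size of 0.35 over all tested genes.

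Dkk2 (gene ID 56811, chromosome 3, 132085266 to 132180304), which binds Lrp5 and Lrp6, was much lower in level. It had 0.78, 0.83 and 1.0 FPKM in spheroids, against 4.73, 4.61 and 4.13 FPKM in monolayers, with no overlap. Its log2 fold change was -2.39 ± 0.10 (SE, adjusted p = 6.10e-20 in edgeR), close in size to those of Sfrp1 and Sfrp2.

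Dkk1 and Sost, the Lrp5 and Lrp6 inhibitors best known from bone, were at the limit of detection. Dkk1 (gene ID 13380, chromosome 19, 30545876 to 30549496) had 2.98 estimated reads over the 3 spheroids and 0.32 over the 3 monolayers. Sost (gene ID 74499, chromosome 11, 101962458 to 101967015), the sclerostin gene of osteocytes, had 0 reads over the 3 spheroids and 1 over the 3 monolayers. A count of 0 still allows 3 reads over a group, or 0.0460 CPM in spheroids and 0.0457 CPM in monolayers, which covers counting error only. No fold change is given for either gene. Among osteocyte markers, Mepe had 0 reads in both formats. Dmp1, a matrix gene of osteocytes, had 14.3 ± 0.640 CPM in spheroids and 0.139 ± 0.0467 CPM in monolayers (SD, n = 3 each). Of 5 tested osteocyte markers 4 were higher. The exception, Fgf23, had 24 reads over the spheroids and 42 over the monolayers and was not called.

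Ordered by mean FPKM, the members in spheroids ran Sfrp4, Dkk3, Sfrp1, Sfrp2, Notum, Wif1, Frzb, Dkk2, Dkk1 and Sost. Sfrp1 and Sfrp2 overlapped in that order, as did Dkk1 and Sost, and the other neighbours did not. In monolayers the order was Sfrp1, Sfrp2, Dkk3, Dkk2, Sfrp4, Wif1, Frzb, Notum, Sost and Dkk1. There Wif1 overlapped Frzb, Frzb overlapped Notum, and Sost overlapped Dkk1. The sum over all 10 members was 336.8 ± 8.83 FPKM in spheroids and 440.7 ± 9.76 FPKM in monolayers (SD, n = 3 each). Of that sum Sfrp4 made up 49.7% ± 0.858 in spheroids and 0.473% ± 0.0923 in monolayers, while Dkk3 made up 23.3% ± 0.321 in spheroids and 19.6% ± 0.163 in monolayers. In bulk libraries such as these, fewer cells of a type and less RNA per cell cannot be told apart.

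**Figure D2:**
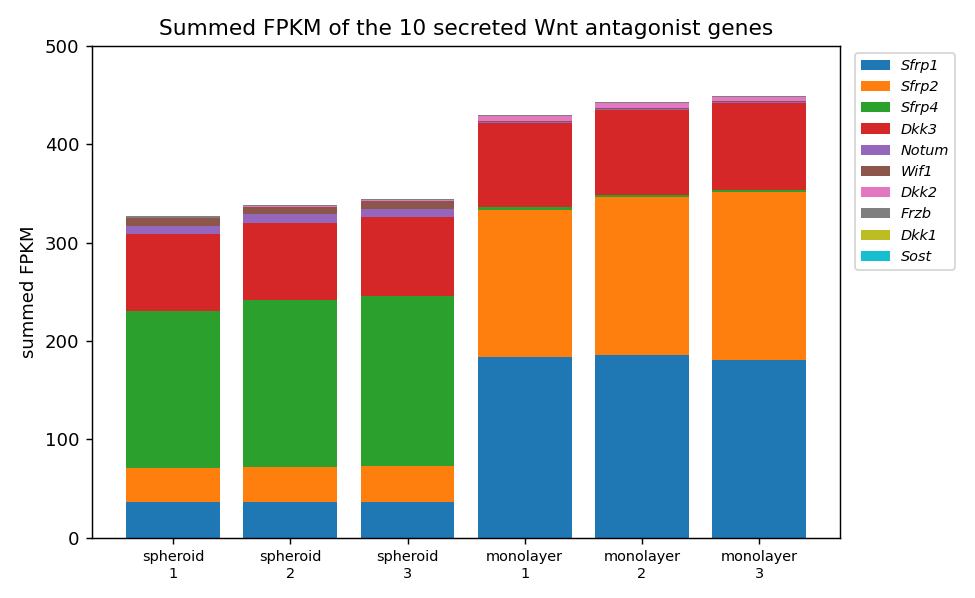
Summed FPKM (y axis) of the 10 antagonist genes in each library (x axis), stacked by gene. Spheroid bars reach 327.24 to 344.63 FPKM with Sfrp4 as the largest block, and monolayer bars reach 429.98 to 449.1 FPKM with Sfrp1 and Sfrp2 as the largest.

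**Figure D3:**
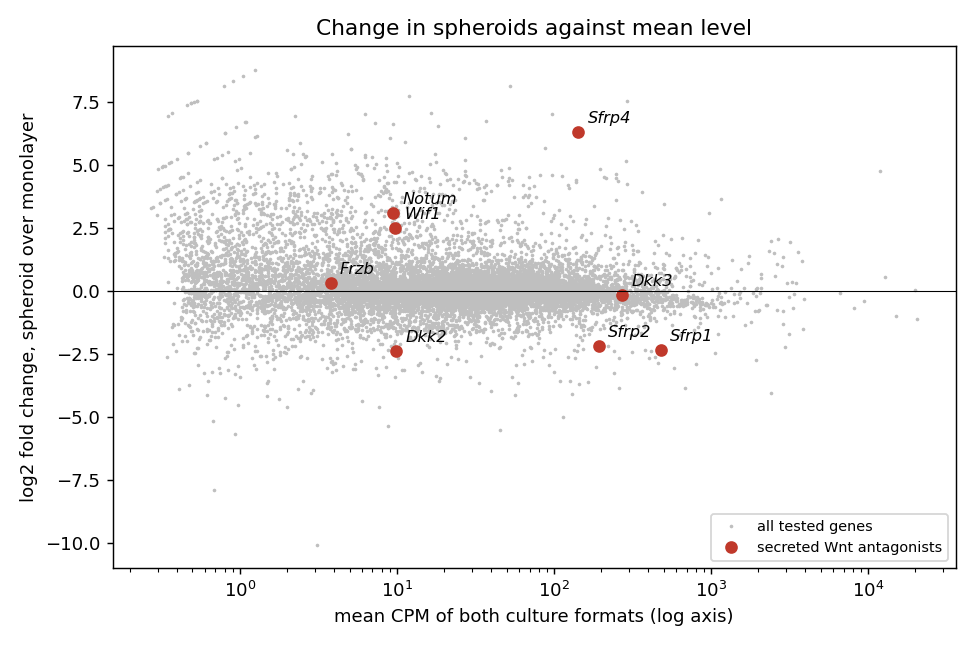
Log2 fold change of spheroid over monolayer (y axis) against mean CPM of both formats (x axis, log scale) for the 13708 tested genes in grey, with the 8 tested antagonists in red. Sfrp4 lies near the upper edge of genes of its abundance, at 6.30, while Dkk3 lies within the dense band around 0.

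Markers of other cell types differed between the same libraries. Beside the counts given here, 37.1% of all tested genes were called higher and 37.1% lower. Skeletal muscle markers were higher in 8 of 8 tested cases, with summed levels of 1180 to 1269 CPM in spheroids and 58.4 to 60.1 CPM in monolayers. Endothelial markers were higher in 10 of 10 (361 to 379 CPM in spheroids, 65.8 to 67.4 CPM in monolayers). Osteoclast markers were higher in 6 of 6 (930 to 941 CPM in spheroids, 181 to 186 CPM in monolayers), but Ctsk, also counted among the periosteal genes, gave 707 CPM of that in spheroids and 179 CPM in monolayers. Of the other osteoclast markers, Mmp9 had 192 CPM in spheroids and 1.51 CPM in monolayers, and Acp5 had 14.4 CPM in spheroids and 2.62 CPM in monolayers. Dcstamp, Ocstamp and Atp6v0d2 had 0, 1 and 12 reads over the 3 monolayers. They passed the low-count filter through the spheroids alone, so only a rise could be called. The same holds for markers in other lists, such as Ckm, Cldn5, Dmp1, Phex and Bglap (12, 9, 9, 10.03 and 0 monolayer reads). Of the untested osteoclast markers, Calcr had 1 read in each format and Oscar had 20 in spheroids and 18 in monolayers. Schwann cell markers were higher in 7 of 7 (204 to 209 CPM in spheroids, 34.8 to 38.3 CPM in monolayers), and macrophage and leukocyte markers in 8 of 9 (140 to 150 CPM in spheroids, 31.7 to 33.6 CPM in monolayers). The largest single contributions were Ngfr to the Schwann cell sum and Lyz2 to the leukocyte sum, the second with 101 CPM in spheroids and 18.4 CPM in monolayers. Osteocyte markers were higher in 4 of 5 (442 to 458 CPM in spheroids, 247 to 263 CPM in monolayers, with Mepe at 0 in both). Nearly all of that sum was Pdpn, at 269 CPM in spheroids and 230 CPM in monolayers, and Fam20c, at 166 CPM in spheroids and 24.3 CPM in monolayers, and the others apart from Dmp1 were below 1 CPM in both formats. Chondrocyte markers, by contrast, were lower in 5 of 5 (150 to 154 CPM in spheroids, 550 to 560 CPM in monolayers, with Matn1 at 0 in spheroids), and Col11a1 gave 40.2 CPM of that in spheroids and 330 CPM in monolayers. The part of these cell types in the levels of Sfrp4, Notum, Wif1, Sfrp1, Sfrp2 and Dkk2 was not tested. The cells' own markers were plentiful in both formats: periosteal and fibroblast genes summed to 24254 to 25574 CPM in spheroids and 15678 to 16319 CPM in monolayers, with 8 of 9 higher and 1 lower. Osteoblast genes, of which 5 rose and 3 fell of 9, summed to 44834 to 47084 CPM in spheroids and 49349 to 50111 CPM in monolayers, with Bglap at 0 in monolayers. The near-equal osteoblast sums held opposite changes, since Spp1 had 23080 CPM in spheroids and 870 CPM in monolayers, Col1a1 had 12878 CPM in spheroids and 28314 CPM in monolayers, and Col1a2 had 10038 CPM in spheroids and 20221 CPM in monolayers.

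Genes whose profiles lay closest to each called member were found by the root mean square difference of centred log2 CPM over the 6 libraries, among 12696 genes. For genes that differ strongly between formats, this measure depends mainly on the size and sign of that difference. The nearest genes to Sfrp4 were the farthest of those found for any called member, with Dmp1, Adamts15 and Mmp12 at 0.19, 0.23 and 0.24. Among the genes nearest to Sfrp1 were Prss23 at 0.032 and Aldh1l2 at 0.040, and Sfrp2 was nearest to Pcsk6, Adamtsl3 and Cavin2 at 0.023 to 0.033. Dkk2 was nearest to Tox, Sema3c and Aldh1l2 (0.068 to 0.10) and Dkk3 to Uso1, Vcp and Hnrnpk (0.0092 to 0.012). Notum was nearest to Abcb4, Ctss and Gpihbp1 (0.113 to 0.121) and Wif1 to Frmd4b, Nr4a2 and Arap3 (0.080 to 0.089). Abcb4 and Gpihbp1 had only 0.093 and 0.185 CPM in monolayers, and Dmp1 and Mmp12 had 0.139 and 0.247 CPM there. At such low levels the count of 2 added before taking logs narrows differences, so these matches may rest partly on it.

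Of 7 other extracellular Wnt inhibitors only Igfbp4 and Draxin had enough reads to test, and both rose (median log2 fold change 0.87). Igfbp4, which encodes an IGF-binding protein that also inhibits Wnt signalling, had a log2 fold change of 0.30 ± 0.03 and 3371 ± 18.1 CPM in spheroids, against 2747 ± 42.5 CPM in monolayers (SD, n = 3 each). Draxin, a guidance protein that antagonises Wnt, rose by 1.45 ± 0.04 on the log2 scale. Sostdc1 had 3 reads over the spheroids and 14 over the monolayers, while Sfrp5, Dkk4, Dkkl1 and Cer1 had at most 2 reads in either format. Of 4 tested inhibitors in the membrane, 3 rose and 1 did not pass (median log2 fold change 0.30). They included Kremen1, a receptor for some Dickkopf proteins, at 0.71 ± 0.03, with Apcdd1 at 0.37 ± 0.07 and Trabd2b at 0.24 ± 0.04.

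Ligands and receptors on which these antagonists act were called in both directions, as were genes overall (37.1% higher and 37.1% lower). Each gene named from the pathway lists passed the test unless stated otherwise. Of 10 tested Wnt ligands 3 rose and 6 fell (median -0.29). Wnt7b rose by 3.79 ± 0.23, Wnt11 by 1.29 ± 0.16 and Wnt9a by 0.89 ± 0.07 on the log2 scale, while Wnt5b, Wnt2b and Wnt10b stood at -0.73 ± 0.09, -0.70 ± 0.23 and -0.44 ± 0.15. Porcn, which adds the lipid that Notum removes, stood at -0.56 ± 0.06, and Wls, which carries Wnt to the surface, did not pass at -0.02 ± 0.03 (median of both -0.29). Of 16 receptors 6 rose and 9 fell (median -0.14). The Frizzled gene Fzd10 rose by 3.50 ± 0.34 and the co-receptor gene Lrp5 by 1.18 ± 0.03. Fzd10 and Wnt7b had only 12 and 32 reads over the 3 monolayers. Both passed the low-count filter through the spheroids alone, so only a rise could be called for them. Fzd1 rose as well, with 459 ± 10.5 CPM in spheroids and 229 ± 0.229 CPM in monolayers (SD, n = 3 each), while Fzd5, Fzd4 and Fzd2 stood at -1.31 ± 0.06, -1.06 ± 0.06 and -1.04 ± 0.04.

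R-spondins, which raise Wnt signalling by protecting Frizzled receptors, and their Lgr receptors were likewise called in both directions. Of 6 tested 2 rose and 4 fell (median -1.15). Rspo1 and Lgr6 rose by 2.83 ± 0.11 and 2.46 ± 0.07, while Lgr5, Rspo3 and Rspo2 stood at -2.80 ± 0.17, -2.28 ± 0.05 and -1.60 ± 0.08. Of 5 tested glypicans, cell-surface proteoglycans that bind Wnt, 1 rose and 3 fell (median -0.85), with Gpc1 at 0.73 ± 0.03 and Gpc3, Gpc6 and Gpc4 at -1.44 ± 0.04, -0.94 ± 0.04 and -0.85 ± 0.04.

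Inside the cell, 10 of 18 transducers rose and 3 fell (median 0.09). Lef1 and Tcf7, the transcription partners of beta-catenin, rose by 1.35 ± 0.19 and 1.28 ± 0.08, and the beta-catenin gene Ctnnb1 by 0.59 ± 0.03. Tcf7l2, Bcl9l and Gsk3b stood at -0.43 ± 0.06, -0.16 ± 0.03 and -0.16 ± 0.03. Of 14 tested beta-catenin target genes 4 rose and 8 fell (median -0.27). Axin2, the target most often used as a readout, had 4.64 ± 0.361 CPM in spheroids and 4.10 ± 0.716 CPM in monolayers and did not pass (log2 fold change 0.18 ± 0.14, adjusted p = 0.241 in edgeR). Besides Lef1 and Tcf7, Fgf18 rose by 0.73 ± 0.10, while Lgr5, Nkd1 and Ccnd1 stood at -2.80 ± 0.17, -1.75 ± 0.07 and -1.32 ± 0.03. Over the 72 tested genes of all these lists, each counted once, 28 rose and 33 fell, with a median of -0.04. Over all 13708 tested genes 37.1% were called higher and 37.1% lower, with a median of 0.00. Risers in these lists were thus near the background share and fallers somewhat above it, a difference that was not tested.

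**Figure D4:**
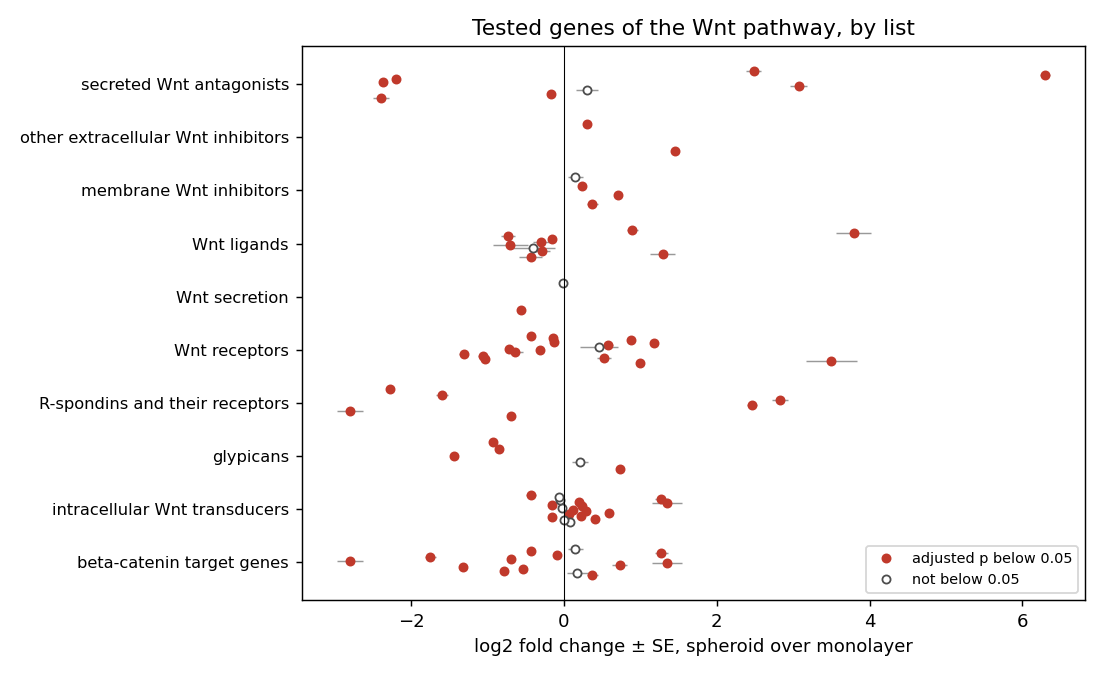
Log2 fold change with SE (x axis) of every tested gene in the antagonist list and in 9 other Wnt pathway lists (y axis). Filled points have an adjusted p below 0.05 and open points do not. Sfrp4, at 6.30, lies farthest to the right, and every list with more than 4 tested genes has points on both sides of 0.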

How the data were processed

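Total RNA was sequenced on the DNBSEQ platform, per the labels' protocols. The submitters' processing notes name HISAT and the build GRCm38.p6. No version, counter, gene annotation or strand setting is given in the sources used here. In the deposited tables are expected counts, estimated read numbers of which 28.9% to 30.6% per library were not whole, and the authors' FPKM values, per the file headers.

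Libraries were grouped by title. Counts were rounded, low genes removed with filterByExpr (minimum count 10), and 13708 of 18002 genes tested with edgeR 4.0.16 in R 4.3.3 (TMM scaling, robust quasi-likelihood fit, Benjamini-Hochberg adjustment over all tested genes, threshold 0.05), between 3 spheroid and 3 monolayer libraries. SEs were derived from the F statistic. CPM values use TMM-adjusted library sizes. Profiles used log2 CPM with a prior count of 2 and genes of at least 1 CPM in the higher format. Coordinates come from RefSeq GRCm38.p6. The scripts were tested on simulated data. No replicate pair agreed within counting noise (mean chi-square 1.90 to 2.91, over genes with at least 40 reads).

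The members, gene lists and tests were chosen with earlier results of these data known. All members and other extracellular inhibitors are named, and from each other Wnt list up to 3 called genes per direction with the largest change at 1 CPM or more, plus Axin2, and the 3 genes nearest in profile to each called member, of which 1 is not reported here. Marker genes named to describe a cell type were chosen after their values were seen. Alternatives were other scalings and filters, DESeq2 1.42.0, limma-voom and limma 3.58.1 on log2(FPKM + 1) and log2(FPKM + 0.1), a replicate block, a threshold of 0.01 and leaving out each library.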

Additional observations from a re-analysis of the deposited data

How the results depend on the processing

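Over 12 other settings and 6 fits without 1 library, Sfrp1, Sfrp2, Sfrp4, Dkk2, Dkk3, Notum and Wif1 kept their direction and their call in every one. Their log2 fold changes ranged from 5.78 to 6.44 for Sfrp4, from 2.28 to 3.29 for Notum and from 1.89 to 2.63 for Wif1. They ranged from -2.39 to -2.31 for Sfrp1, -2.25 to -2.13 for Sfrp2, -2.51 to -1.55 for Dkk2 and -0.19 to -0.14 for Dkk3. The smallest sizes for Sfrp4, Notum, Wif1 and Dkk2 came from log2(FPKM + 1), which understates the change of low genes. Frzb, not called at 0.30, was called at 0.33 with library size alone, 0.32 with library size without the 10 most abundant genes, 0.31 with a filter of 1 CPM in 3 libraries and 0.19 on log2(FPKM + 1), and the cause was not tested. Without 1 library it ranged from 0.18 to 0.39. Over all 18 alternatives its adjusted p ran from 0.0292 to 0.302. Same-numbered libraries of the 2 formats had deviations correlated at -0.08, 0.17 and -0.06. Differently numbered libraries ran from -0.24 (spheroid 3 with monolayer 2) to 0.25 (spheroid 3 with monolayer 1), so the numbers were not taken as pairs. With the replicate block 5120 genes were higher and 5118 lower, beside 5082 and 5091 without it, no antagonist changed its call, and Frzb stood at 0.30 (adjusted p = 0.0615 in edgeR). Depth limits Dkk1 and Sost, which at these totals could not be told from 0.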
